A study of Homo sapiens with 9 samples.

Results

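Cadherins and protocadherins are cell-surface proteins that join cells to their neighbours, and 50 of their genes were followed by RNA sequencing in RD cells, a human embryonal rhabdomyosarcoma line. The genes were chosen by symbol: protein-coding genes named CDH, PCDH or PCDHB followed by a number. They are 50 of the 60676 gene identifiers counted, of which 19936 are protein coding. The question of the series is what loss of TRPS1, a GATA-type zinc finger repressor of transcription, does to muscle differentiation of these tumour cells. The cells carried a doxycycline-inducible hairpin against TRPS1 (shTRPS1#1 or shTRPS1#2) or an inducible non-targeting hairpin (shNT), with 3 libraries in each of the 3 groups. All 9 libraries came from cells kept in 1 µM doxycycline throughout, first for 2 days in growth medium (10% fetal bovine serum) and after that for 10 days in differentiation medium (2% horse serum), so the shNT cells were also exposed to the drug and to the low-serum medium. Libraries were made from 180 ng of total RNA by poly(A) selection. All libraries come from the same cell line, and the labels do not say whether those of a group come from separate cultures, so each p-value below refers to variation among these libraries and may reflect technical variation alone.

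Classical cadherins bind, through their extracellular repeats and calcium, to cadherins of the facing cell, and their cytoplasmic tails hold catenins that link the junction to actin. Type I members such as CDH1, CDH2 and CDH4 carry a conserved adhesion motif, and type II members differ from them in the adhesive pocket. CDH15 is classed here with type I. Protocadherins have other cytoplasmic tails and mostly weaker adhesion. In skeletal muscle CDH2 (N-cadherin) and CDH15 (M-cadherin) sit on myoblasts at sites of contact and fusion, and N-cadherin contact is known to signal to the myogenic program through CDON and BOC. The PCDHB genes form a cluster of intronless genes in tandem, each with its own promoter, known mainly for cell-surface identity in neurons.

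The 50 members were 5 type I cadherins, 13 type II cadherins, 5 atypical cadherins, 11 non-clustered protocadherins and 16 PCDHB genes. They lie on few chromosomes: 23 of the 50 are on chromosome 5 and 8 on chromosome 16. The 16 PCDHB genes stand side by side from PCDHB1 to PCDHB15 at chr5:141051135-141249365 (GRCh38, GENCODE 29), all on the plus strand.

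A feature that the PCDHB genes share, beyond their names, is a short promoter element. RefSeq promoters (GRCh38.p14, 250 bases before to 50 after the start) were at hand for 35 of the 50 members, 14 of them PCDHB genes (all but PCDHB6 and PCDHB11). The letters GGTGGCGCT, searched on both strands, were present in 13 of the 14 PCDHB promoters (92.9%), in 0 of the 33 promoters of other members, and in 0.501% of all 35116 promoters. They contain CGCT, the core of the element known from clustered protocadherin promoters, which is bound there by CTCF. The windows below show the element in capitals for the genes at both ends of the tandem that hold it, PCDHB2 and PCDHB15, and for PCDHB10, PCDHB12 and PCDHB16 between them, with PCDHB1 beside them because it is the exception among the promoters searched. PCDHB1 is known as a clustered protocadherin without the element. Its promoter holds only the core letters CGCT, at 2 places on the gene strand and 1 on the other strand. The 2 on the gene strand are the capitals in its windows. CGCT alone is common, on either strand in 70% of all promoters. All windows are on the plus strand.
PCDHB2: acgcggGGTGGCGCTgcagccttaga
PCDHB10: ccacacGGTGGCGCTgcaggctaaag
PCDHB12: acgcgtGGTGGCGCTgcaggataata
PCDHB15: acgcatGGTGGCGCTgcaggctaagg
PCDHB16: acgcgtGGTGGCGCTgcaggttaaga
PCDHB1 first core: attaatacattCGCTagactggggag
PCDHB1 second core: gggagttgagtCGCTcaatgcaaatt

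The PCDHB2 window lies at chr5:141094549-141094574, that of PCDHB10 at chr5:141192304-141192329, that of PCDHB12 at chr5:141208648-141208673, that of PCDHB15 at chr5:141245319-141245344 and that of PCDHB16 at chr5:141182315-141182340. The windows of PCDHB1 lie at chr5:141051258-141051283 and chr5:141051279-141051304. In the promoters of PCDHB8 and PCDHB5 the first base of the element lay 2 and 16 bases before the RefSeq start, and in the other 11 it lay 43 to 84 bases before it. A second search was for common forms of the site that GATA factors read: the hexamer AGATAA, the hexamer TGATAA, and both with a final G (the hexamer AGATAG, the hexamer TGATAG). At least 1 of these 4 hexamers, on either strand, was present in 7 of 14 PCDHB promoters (50%), in 9 of 33 other member promoters (27.3%) and in 25% of all promoters. Of the 11 members called with either hairpin that had a promoter in the table, 4 held such a hexamer. A match of letters is not a binding site, and no match says only that these letters are not in the window.

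The libraries held 22302248 to 23289062 counted reads with shTRPS1#1, 21965744 to 22378996 with shTRPS1#2 and 22480288 to 22945103 with shNT, and members took 0.171% to 0.178% of them. TRPS1 itself was at 55.4, 61.7 and 56.3 CPM with shTRPS1#1 and 56.4, 59.0 and 56.8 CPM with shTRPS1#2, against 76.5, 70.0 and 74.1 CPM with shNT (CPM, library-scaled counts, with TMM factors). Its fitted level was 78.6% of shNT with shTRPS1#1 and 78.0% with shTRPS1#2 (edgeR adjusted p = 2.27e-08 and 1.02e-08), so most of the TRPS1 transcript was still present in both knockdown groups. The cells showed the markers of muscle: summed over 7 skeletal myoblast markers (MYOD1, MYOG, DES, CHRNA1, MYH3, PAX7 and MYF5), levels were 1698 to 1762 RPKM with shTRPS1#1, 1626 to 1674 RPKM with shTRPS1#2 and 1338 to 1406 RPKM with shNT, with MYF5 at or near 0. Of other cell types, 1 of 7 epithelial markers (KRT18) and 1 of 7 neural markers (SNAP25) averaged at least 1 RPKM in every group, 1 of 7 endothelial markers (TEK) in both knockdown groups, and 0 of 5 leukocyte markers in any. Summed neural markers were at 4.03 to 4.34 RPKM with shTRPS1#1, 3.66 to 4.07 RPKM with shTRPS1#2 and 3.81 to 4.15 RPKM with shNT, and leukocyte markers stayed at or below 0.284 RPKM. KRT19 and the T cell gene CD3E were at 0 in every library. By contrast, 5 of 6 fibroblast markers were above 1 RPKM in each group, led by the collagen gene COL3A1. The summed fibroblast markers were at 3334 to 3392 RPKM with shTRPS1#1, 2988 to 3036 RPKM with shTRPS1#2 and 3182 to 3217 RPKM with shNT. The myoblast and the fibroblast marker sums both differed between the groups. Their part in the member results that follow was not tested. In bulk RNA, fewer cells expressing a gene and less RNA per cell cannot be told apart.

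Of the 50 members, 32 had enough reads for a test and 18 did not. CDH10, CDH16 and PCDH20 had 0 reads in all 9 libraries, where 3 reads correspond to 0.129 to 0.137 CPM. The annotated exons of PCDH20 are shared over 95.8% of their length with another gene that also had 0 reads, so reads from either may have been left out of the count. Another 7 untested members had 1 to 9 reads in all libraries together. Among them was CDH1 (E-cadherin, the epithelial cadherin) with 6 reads in 4 libraries. The remaining 8 had more, and CDH6, with 72 reads, and PCDH1, with 65, were the nearest below the filter, while PCDHB7, with 188, and PCDHB5, with 191, were the nearest above it. CDH5 (VE-cadherin, of endothelium) had 17 reads and CDH23, the partner of PCDH15 in the tip links of hair cells, had 49.

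Per length of transcript, the cells used few cadherins strongly. In shNT cells 24 members averaged at least 1 RPKM (reads per kilobase of transcript, scaled to library total, the authors' values) and 6 at least 10 RPKM. CDH2 was the highest at 57.0 ± 0.872 RPKM in shNT (SD, n = 3, as for the other means here), and 514 of 13483 protein-coding genes tested lay above it. PCDH18, a protocadherin of the delta group, followed at 37.9 ± 1.04 RPKM in shNT, and CDH15 at 31.4 ± 1.03 RPKM. PCDH7, another delta protocadherin, was at 24.1 ± 0.65 RPKM and PCDHB2 at 23.3 ± 0.573 RPKM in shNT, with libraries close enough that the order of this pair is not settled. CDH11 (OB-cadherin, a type II cadherin of mesenchyme) was at 13.5 ± 0.364 RPKM in shNT and CDH13 (T-cadherin, held in the membrane by a lipid anchor) at 9.13 ± 0.147 RPKM. PCDHB16 and PCDHB11, at 7.65 ± 0.335 and 7.62 ± 0.649 RPKM in shNT, did not differ beyond their spread. The 5 highest members held 67.4% of the summed RPKM of all 50 in shNT, and CDH2 alone 22.1%.

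**Figure D1:**
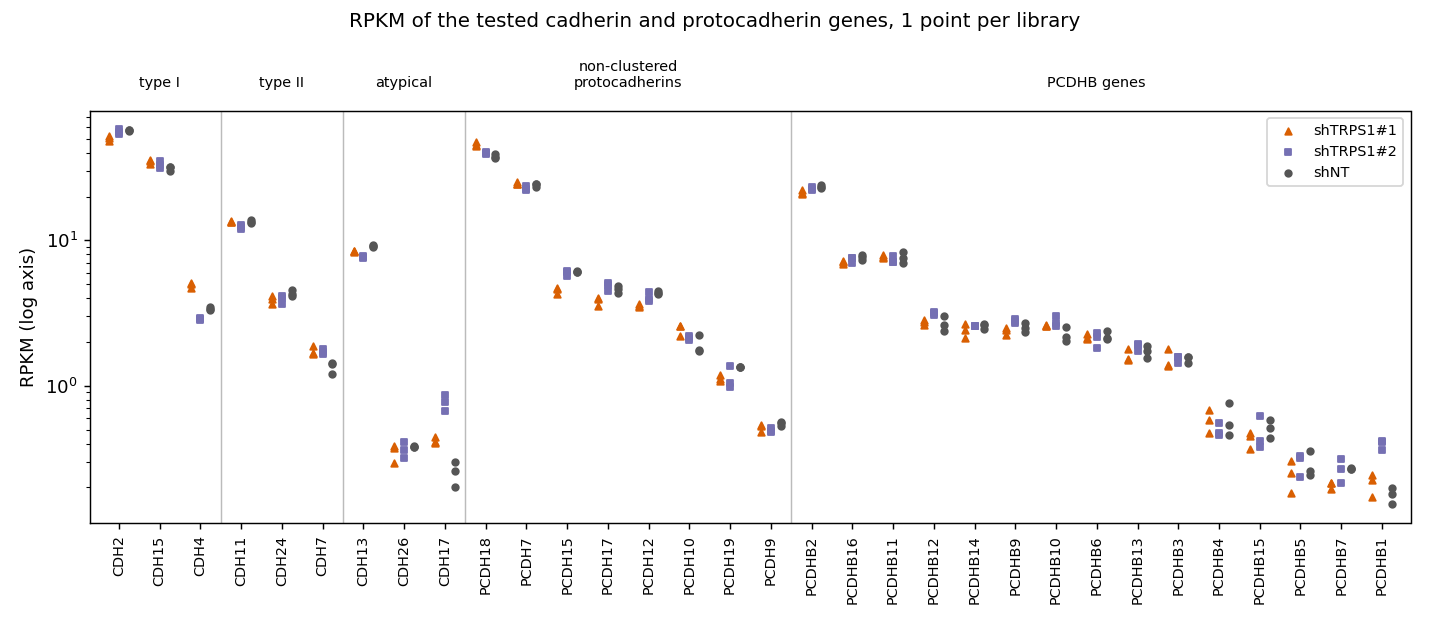
Level of the 32 tested members in each of the 9 libraries (RPKM, log axis), ordered within the 5 classes of the family; each point is a library and colours mark shTRPS1#1, shTRPS1#2 and shNT. CDH2, PCDH18 and CDH15 lie highest in every group, and the PCDHB genes spread from PCDHB2 above 20 RPKM to PCDHB1 below 1 RPKM.

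Members were called in both directions, in about equal numbers with each hairpin. With shTRPS1#1, 12 of the 32 tested members differed from shNT, 6 higher and 6 lower (37.5%), where 13.4% of all 17014 genes tested did (7.1% higher and 6.33% lower; edgeR quasi-likelihood test, adjusted p under 0.05). With shTRPS1#2, 9 members differed, 5 higher and 4 lower (28.1%), beside 18.9% of all genes (9.01% higher and 9.87% lower). All members are protein coding, and of 13483 protein-coding genes tested 2123 differed with shTRPS1#1 and 2962 with shTRPS1#2. The median log2 fold change of the 32 was −0.07 with shTRPS1#1 and −0.03 with shTRPS1#2, and over all genes it was 0.001 and −0.006. The median size of change regardless of sign was 0.143 with shTRPS1#1 and 0.111 with shTRPS1#2, and 0.086 and 0.0999 over all genes. The hairpins share their shNT libraries, so the values of each are given side by side below. CDH7 and CDH17 were higher and CDH13 and PCDH19 lower with both hairpins, 4 of 32 members, where 5.83% of all genes were called the same way with both (3.46% higher and 2.37% lower). Without shTRPS1#1 replicate 1 or without shNT replicate 3 this count of 4 came to 1, and without shTRPS1#1 replicate 2, shTRPS1#1 replicate 3 or shNT replicate 2 it came to 2. CDH4 moved in opposite directions, the sole such member, where 1.02% of all genes did. Counted without a fit, the 3 knockdown libraries did not overlap the 3 shNT libraries in CPM for 16 of 32 members with shTRPS1#1 (27.4% of all genes) and for 9 of 32 with shTRPS1#2 (31.8%).

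**Figure D2:**
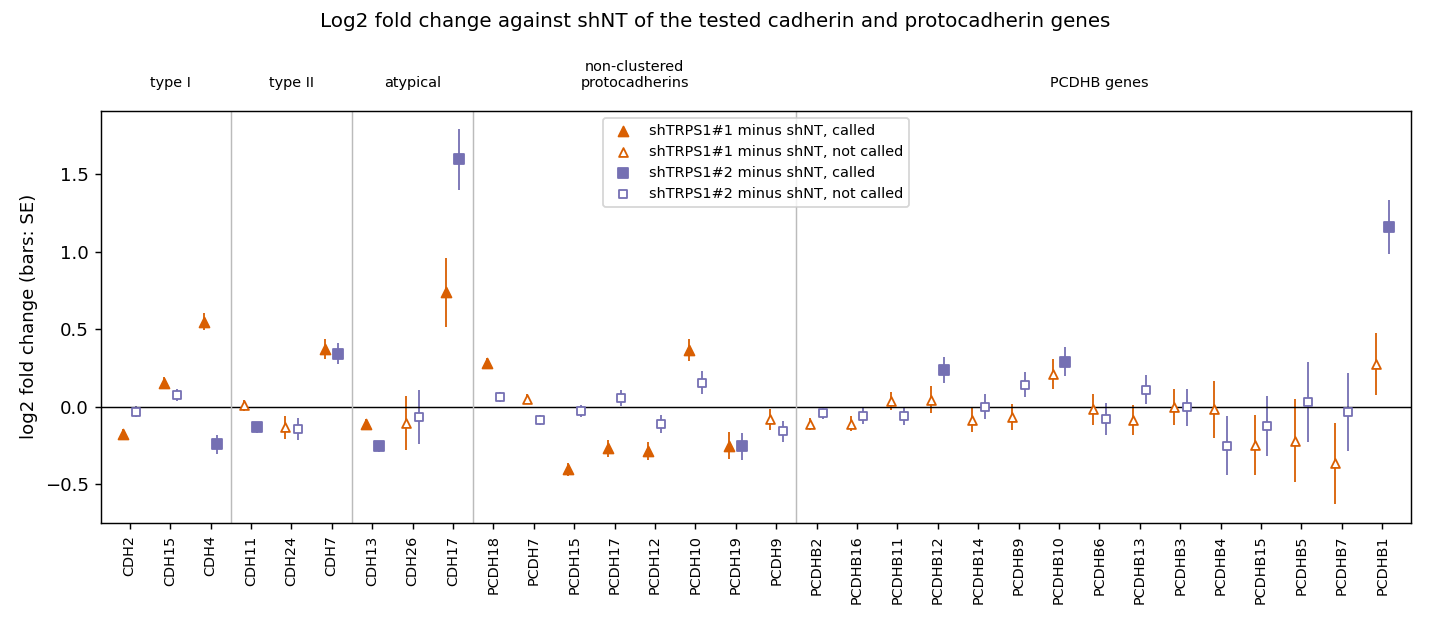
Log2 fold change of the 32 tested members with shTRPS1#1 and with shTRPS1#2 against shNT (points, with bars of 1 SE from the edgeR fit), by class; filled points passed an adjusted p of 0.05. CDH17 and PCDHB1 reach 1.6 and 1.16 with shTRPS1#2, CDH4 lies at 0.55 and −0.24, and most PCDHB genes stay near 0 with both hairpins.

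All 3 tested type I cadherins were called with shTRPS1#1 (13.4% of all genes): CDH15 and CDH4 rose and CDH2 fell. With shTRPS1#2 (18.9% of all genes) CDH4 alone was called, and it fell. CDH2 (ENSG00000170558, chr18:27950966-28177446, minus strand) was at 235, 242 and 225 CPM with shTRPS1#1 and 250.04, 259 and 267 CPM with shTRPS1#2, against 266, 266 and 261 CPM with shNT. The shTRPS1#1 libraries lay below all the others, while those of shTRPS1#2 overlapped shNT. CDH2 fell by 0.18 on the log2 scale with shTRPS1#1 (SE 0.03, edgeR adjusted p = 0.000104). With shTRPS1#2 the difference was −0.03 ± 0.03 (SE, edgeR adjusted p = 0.613), with a 95% interval of −0.10 to 0.04.

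CDH15, the muscle cadherin (ENSG00000129910, chr16:89171767-89195492, plus strand), was at 167, 155 and 164 CPM with shTRPS1#1 and 162, 154 and 146 CPM with shTRPS1#2, against 140.4, 147 and 149.8 CPM with shNT. All shTRPS1#1 libraries were above all shNT libraries, and 1 of the shTRPS1#2 libraries lay within the shNT range. CDH15 rose by 0.15 ± 0.04 with shTRPS1#1 (log2, SE, edgeR adjusted p = 0.00248), to 111% of shNT, a call that limma on log2 RPKM did not make (adjusted p = 0.0585 and 0.062 with pseudocounts of 0.1 and 1). With shTRPS1#2 it differed by 0.08 ± 0.04 (edgeR adjusted p = 0.159), and without shTRPS1#2 replicate 3 by 0.12 (edgeR adjusted p = 0.0269). The summed level of the type I cadherins was 89.7 ± 1.51 RPKM with shTRPS1#1, 92.1 ± 0.247 RPKM with shTRPS1#2 and 91.8 ± 0.966 RPKM with shNT.

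CDH4 (R-cadherin, known from retina and kidney; ENSG00000179242, chr20:61252426-61940617, plus strand) was at 38.6, 35.2 and 37.7 CPM with shTRPS1#1 and 21.4, 21.9 and 21.1 CPM with shTRPS1#2, against 26.2, 24.6 and 25.3 CPM with shNT. The 3 groups did not overlap: shTRPS1#1 was highest, shNT between, and shTRPS1#2 lowest. It rose by 0.55 ± 0.05 on the log2 scale with shTRPS1#1 (edgeR adjusted p = 1.4e-11) and fell by 0.24 with shTRPS1#2 (SE 0.06, edgeR adjusted p = 0.00177). Both calls stood under all 18 alternative fits, and the hairpins differed directly by −0.79 ± 0.06 (shTRPS1#2 minus shTRPS1#1, edgeR adjusted p = 3.04e-16).

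Of the type II cadherins, CDH7, CDH11 and CDH24 were tested. CDH7, a cadherin known from migrating neural crest cells in chick (ENSG00000081138, chr18:65750252-65890341, plus strand), was at 24, 24.4 and 27.5 CPM with shTRPS1#1 and 25.7, 24.2 and 24.6 CPM with shTRPS1#2, against 20.4, 17.5 and 20.8 CPM with shNT. Each of the 6 knockdown libraries was above each shNT library. CDH7 rose by 0.37 ± 0.07 with shTRPS1#1 and 0.34 ± 0.07 with shTRPS1#2 (log2, SE, edgeR adjusted p = 2.04e-05 and 6.74e-05), and both calls stood under all 18 alternatives. CDH11 was lower with shTRPS1#2, by −0.13 ± 0.04 (edgeR adjusted p = 0.00444), and at 0.01 ± 0.04 with shTRPS1#1 (edgeR adjusted p = 0.915). The CDH11 call rested on single libraries: the edgeR adjusted p was 0.0767 without shTRPS1#2 replicate 1 and 0.06 without shNT replicate 3. CDH24 averaged 3.92 ± 0.25 RPKM with shTRPS1#1 and 3.94 ± 0.252 RPKM with shTRPS1#2, against 4.34 ± 0.223 RPKM with shNT, and was called with neither hairpin (edgeR adjusted p = 0.267 and 0.186).

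Of the atypical cadherins, CDH17 had the largest log2 fold change of any member, and CDH13 was lower with both hairpins. CDH17 (LI-cadherin, known from liver and intestine; ENSG00000079112, on chromosome 8) had few reads: 39, 35 and 37 with shTRPS1#1 and 66, 58 and 75 with shTRPS1#2, against 23, 26 and 18 with shNT. In CPM these were 1.75, 1.58 and 1.6 with shTRPS1#1 and 2.99, 2.61 and 3.33 with shTRPS1#2, against 1.01, 1.15 and 0.787 with shNT. The groups were stacked without overlap, with shTRPS1#2 highest and shNT lowest. CDH17 rose by 1.6 ± 0.19 on the log2 scale with shTRPS1#2 (edgeR adjusted p = 6.61e-09), to 302% of shNT. With shTRPS1#1 it rose by 0.74 ± 0.22 (edgeR adjusted p = 0.0165), a call absent without shTRPS1#1 replicate 1 (adjusted p = 0.0676), without shNT replicate 3 (0.109) and in DESeq2 (0.089). At this level CDH17 was still below 1 RPKM in every group, with 0.77 ± 0.0967 RPKM in shTRPS1#2 against 0.253 ± 0.0483 RPKM in shNT. The 7 epithelial markers summed to 1.90 to 2.32 RPKM with shTRPS1#1, 2.30 to 2.98 RPKM with shTRPS1#2 and 2.21 to 2.47 RPKM with shNT. They include CDH1, itself a member, and KRT19, which was at 0. The keratins KRT8 and KRT18, the 2 of these markers that were tested, were higher with shTRPS1#2 than with shTRPS1#1, as CDH17 was (log2 0.85 ± 0.26 and 0.40 ± 0.11, edgeR adjusted p = 0.0128 and 0.00765). Against shNT, KRT8 was lower with shTRPS1#1 (−0.74 ± 0.26, edgeR adjusted p = 0.0483), where CDH17 was higher, and neither keratin was called with shTRPS1#2. The keratin calls between the hairpins were lost without shTRPS1#1 replicate 1 (KRT8 0.122, KRT18 0.0526), KRT8 also without shTRPS1#2 replicate 1 (0.0663) and KRT18 without shTRPS1#2 replicate 3 (0.116), and the KRT8 call against shNT was lost in 10 of 18 alternatives (adjusted p up to 0.293). The part of these keratins in the CDH17 result was not tested.

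CDH13 (ENSG00000140945, chr16:82626803-83800640, plus strand) was at 93.2, 91.5 and 94.3 CPM with shTRPS1#1 and 85.6, 83.5 and 83.9 CPM with shTRPS1#2, against 103, 99.4 and 99.7 CPM with shNT. All knockdown libraries lay below all shNT libraries, and those of shTRPS1#2 below those of shTRPS1#1. CDH13 fell by 0.25 with shTRPS1#2 (log2, SE 0.04, edgeR adjusted p = 5.41e-07). The shTRPS1#1 difference of −0.11 ± 0.04 was at the threshold (edgeR adjusted p = 0.032): it was lost in 8 of 18 alternatives, among them the removal of any of the 6 libraries compared. Those adjusted p-values were 0.083, 0.0902 and 0.0557 without shTRPS1#1 replicates 1, 2 and 3, and 0.121, 0.0534 and 0.0615 without shNT replicates 1, 2 and 3. CDH26 had 0.352 ± 0.0488 RPKM with shTRPS1#1 and 0.365 ± 0.0475 RPKM with shTRPS1#2, against 0.382 ± 0.00406 RPKM with shNT, and was not called.

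**Figure D3:**
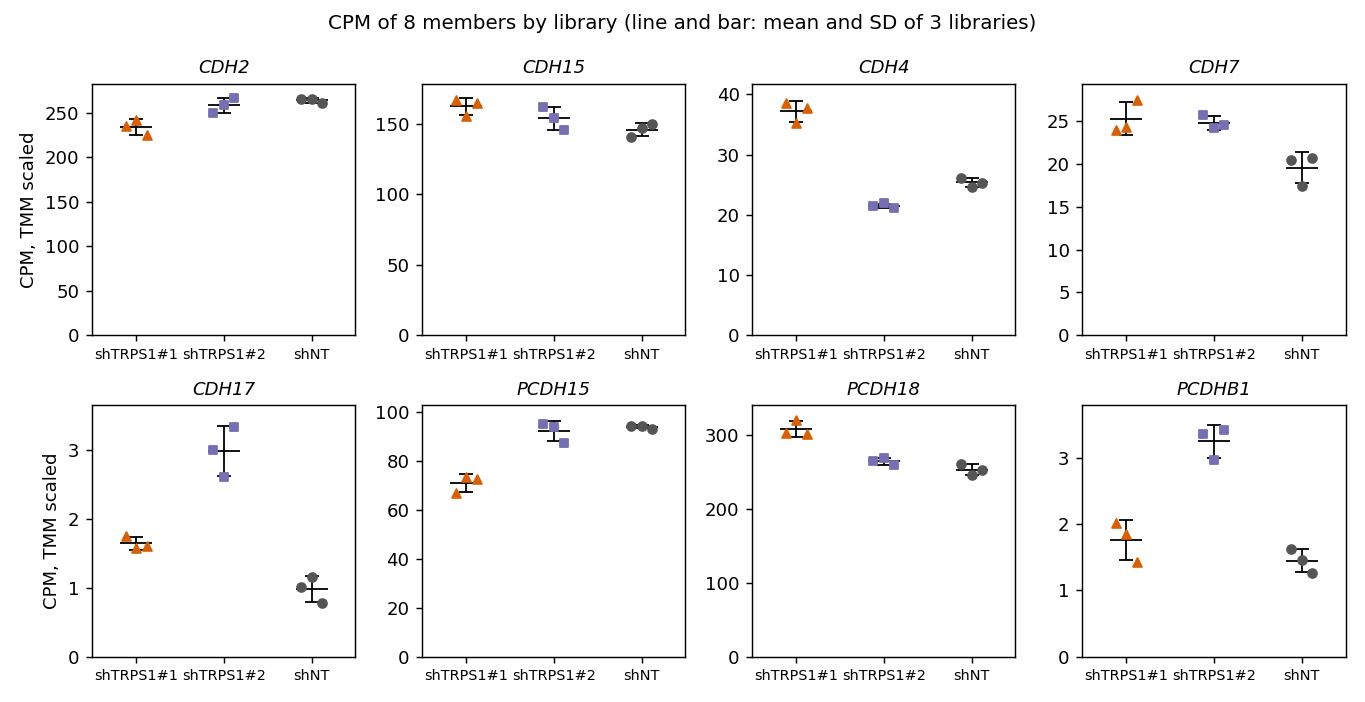
CPM of CDH2, CDH15, CDH4, CDH7, CDH17, PCDH15, PCDH18 and PCDHB1 in each library (points) with the group mean and SD (bars), in the order shTRPS1#1, shTRPS1#2 and shNT; each panel has its own axis. CDH4 is highest with shTRPS1#1 and lowest with shTRPS1#2, PCDH15 is lowest with shTRPS1#1, and CDH17 and PCDHB1 are highest with shTRPS1#2.

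Among the non-clustered protocadherins, 6 of 8 tested members were called with shTRPS1#1 (13.4% of all genes), PCDH18 and PCDH10 higher and PCDH15, PCDH17, PCDH12 and PCDH19 lower. With shTRPS1#2, PCDH19 alone was called, and it was lower; 1 of 8 is below the 18.9% of all genes. PCDH18 (ENSG00000189184, chr4:137518918-137532494, minus strand) was at 303, 319.9 and 301 CPM with shTRPS1#1 and 265, 269 and 259 CPM with shTRPS1#2, against 261, 246 and 252 CPM with shNT. The shTRPS1#1 libraries stood apart above the others, and shTRPS1#2 overlapped shNT. PCDH18 rose by 0.28 ± 0.03 with shTRPS1#1 (log2, SE, edgeR adjusted p = 3.46e-09), and the difference with shTRPS1#2 was 0.06 ± 0.03 (edgeR adjusted p = 0.207).

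PCDH15 (ENSG00000150275, chr10:53802771-55627942, minus strand), known as the lower part of the tip link in inner ear hair cells, had the largest fall of any member. It was at 66.9, 73.4 and 72.6 CPM with shTRPS1#1 and 95.1, 93.7 and 87.4 CPM with shTRPS1#2, against 94.1, 94.1 and 93.1 CPM with shNT. The shTRPS1#1 libraries were below all others, and shTRPS1#2 overlapped shNT. PCDH15 fell by 0.40 with shTRPS1#1 (log2, SE 0.04, edgeR adjusted p = 5.53e-11) and differed by −0.03 ± 0.04 with shTRPS1#2 (edgeR adjusted p = 0.722).

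PCDH17 and PCDH12 were also lower with shTRPS1#1. PCDH17, a delta protocadherin known from axon outgrowth, averaged 3.82 ± 0.232 RPKM with shTRPS1#1 and 4.83 ± 0.299 RPKM with shTRPS1#2, against 4.63 ± 0.26 RPKM with shNT. Its log2 difference was −0.27 ± 0.06 with shTRPS1#1 and 0.06 ± 0.05 with shTRPS1#2 (edgeR adjusted p = 0.000305 and 0.512). PCDH12, known from endothelium, averaged 3.56 ± 0.094 RPKM with shTRPS1#1 and 4.05 ± 0.305 RPKM with shTRPS1#2, against 4.37 ± 0.109 RPKM with shNT. Its log2 difference was −0.28 ± 0.06 with shTRPS1#1 and −0.11 ± 0.06 with shTRPS1#2 (edgeR adjusted p = 0.000234 and 0.198). The exons of PCDH12 overlap those of RNF14 on the opposite strand over 1.58% of their length, and the labels do not state whether strand was used in counting. The 7 endothelial markers summed to 1.80 to 1.92 RPKM with shTRPS1#1, 1.95 to 2.24 RPKM with shTRPS1#2 and 1.70 to 1.98 RPKM with shNT. They include CDH5, itself a member. Of the 3 that were tested, 0 were called with shTRPS1#1 (13.4% of all genes). With shTRPS1#2, 1 was called, and it was higher (18.9% of all genes).

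PCDH10, a delta protocadherin of brain, averaged 2.44 ± 0.225 RPKM with shTRPS1#1 and 2.13 ± 0.074 RPKM with shTRPS1#2, against 1.91 ± 0.269 RPKM with shNT. It rose by 0.37 ± 0.07 with shTRPS1#1 (log2, SE, edgeR adjusted p = 0.000101) although the libraries of these groups overlapped, and limma on log2 RPKM did not call it (adjusted p = 0.0588 and 0.0597). With shTRPS1#2 the PCDH10 difference was 0.16 ± 0.07 (edgeR adjusted p = 0.146), and without shNT replicate 1, the highest of its group, 0.28 (edgeR adjusted p = 0.00391).

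PCDH19 (ENSG00000165194, chrX:100291644-100410273, minus strand), the gene of an epilepsy that affects mainly females, was at 10.6, 11.6 and 11 CPM with shTRPS1#1 and 13.3, 10.2 and 9.5 CPM with shTRPS1#2, against 13.2, 13.1 and 13.2 CPM with shNT. All shTRPS1#1 libraries were below shNT, while 1 of the shTRPS1#2 libraries was as high as shNT. PCDH19 was lower by −0.25 ± 0.09 with shTRPS1#1 and −0.26 ± 0.09 with shTRPS1#2 (log2, SE, edgeR adjusted p = 0.0465 and 0.0313). Both calls were near the threshold and were lost in 9 and 8 of 18 alternatives. With shTRPS1#1 the adjusted p was 0.165, 0.055 and 0.12 without shTRPS1#1 replicates 1, 2 and 3 and 0.0831, 0.0958 and 0.101 without shNT replicates 1, 2 and 3. With shTRPS1#2 it was 0.176 and 0.256 without shTRPS1#2 replicates 2 and 3 and 0.0555, 0.0685 and 0.0764 without shNT replicates 1, 2 and 3.

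PCDH7 and PCDH9 were called with neither hairpin. PCDH7 was at 311, 302 and 301 CPM with shTRPS1#1 and 270.0, 277 and 286 CPM with shTRPS1#2, against 299.6, 284 and 300.2 CPM with shNT. All its shTRPS1#1 libraries lay just above shNT and its shTRPS1#2 libraries ran from below shNT into its range. The PCDH7 difference with shTRPS1#2 was −0.09 ± 0.03 (log2, SE, edgeR adjusted p = 0.0638), passing the threshold without shTRPS1#2 replicate 3 (0.0238) or without shNT replicate 2 (0.0255). PCDH9 averaged 0.517 ± 0.0307 RPKM with shTRPS1#1 and 0.494 ± 0.0144 RPKM with shTRPS1#2, against 0.55 ± 0.0187 RPKM with shNT (edgeR adjusted p = 0.544 and 0.109). Summed over the 11 non-clustered protocadherins, the level was 86.5 ± 1.64 RPKM with shTRPS1#1, 81.0 ± 0.852 RPKM with shTRPS1#2 and 80.9 ± 2.16 RPKM with shNT.

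In the PCDHB cluster, 0 of the 15 tested genes were called by edgeR with shTRPS1#1 (13.4% of all genes), although 3 had an unadjusted p under 0.05. DESeq2 also called 0 there, while limma on log2 RPKM called PCDHB2 with both pseudocounts (adjusted p = 0.0358 with each). With shTRPS1#2, PCDHB1, PCDHB10 and PCDHB12 were called, all 3 higher, 20% of the 15, close to the 18.9% of all genes. Among the 17 tested members outside the cluster, 12 were called with shTRPS1#1 (70.6%, beside 13.4% of all genes) and 6 with shTRPS1#2 (35.3%, beside 18.9%). The PCDHB genes were also measured less precisely, with a median SE of 0.096 against 0.055 for the other members (log2, shTRPS1#1), and the difference between the clustered and the other members was not tested. Summed RPKM over the cluster was 53.4 ± 1.51 with shTRPS1#1, 56.2 ± 0.436 with shTRPS1#2 and 55.9 ± 2.29 with shNT.

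PCDHB1, the first gene of the cluster, had the largest change of the tested PCDHB genes, with shTRPS1#2. It had 45, 41 and 33 reads with shTRPS1#1 and 74, 66 and 77 with shTRPS1#2, against 37, 33 and 29 with shNT. In CPM it was at 2.02, 1.85 and 1.43 with shTRPS1#1 and 3.36, 2.96 and 3.42 with shTRPS1#2, against 1.62, 1.46 and 1.27 with shNT. The shTRPS1#2 libraries were above all others, and shTRPS1#1 overlapped shNT. PCDHB1 (ENSG00000171815, chr5:141051135-141059344) rose by 1.16 ± 0.17 on the log2 scale with shTRPS1#2 (edgeR adjusted p = 8.52e-07), to 224% of shNT, and this call stood under all 18 alternatives. With shTRPS1#1 its difference was 0.28 ± 0.20 (edgeR adjusted p = 0.435). Its level stayed low, at 0.397 ± 0.0315 RPKM with shTRPS1#2 against 0.177 ± 0.0218 RPKM with shNT.

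PCDHB10 was at 8.70, 8.51 and 8.53 CPM with shTRPS1#1 and 8.85, 9.93 and 8.39 CPM with shTRPS1#2, against 8.38, 6.68 and 7.13 CPM with shNT. All knockdown libraries were above all shNT libraries, but the lowest of them only just. PCDHB10 was higher by 0.29 ± 0.10 with shTRPS1#2 (log2, SE, edgeR adjusted p = 0.024), a call lost without shTRPS1#2 replicate 2 (0.168), shNT replicate 2 (0.162) or shNT replicate 3 (0.094). With shTRPS1#1 it was 0.21 ± 0.10 (edgeR adjusted p = 0.15), and 0.31 without shNT replicate 1 (edgeR adjusted p = 0.0406). PCDHB12 was higher by 0.24 ± 0.08 with shTRPS1#2 (edgeR adjusted p = 0.0397), with 3.14 ± 0.0832 RPKM against 2.66 ± 0.325 RPKM in shNT. That call was lost in 9 of 18 alternatives, among them those without shTRPS1#2 replicates 1, 2 and 3 (0.0918, 0.0552 and 0.0896) and without shNT replicates 2 and 3 (0.288 and 0.112).

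PCDHB2, the highest gene of the cluster, was at 91.3, 87.6 and 86.7 CPM with shTRPS1#1 and 92.3, 95.5 and 90.7 CPM with shTRPS1#2, against 98.2, 94.3 and 93.8 CPM with shNT. The shTRPS1#1 libraries were all below shNT, and those of shTRPS1#2 overlapped it. The PCDHB2 difference with shTRPS1#1 was −0.11 ± 0.04 (log2, SE, edgeR adjusted p = 0.0525) and passed the threshold in 7 of 18 alternatives, among them those without shTRPS1#1 replicate 1 (0.0447) and without shTRPS1#2 replicate 3 (0.0383). The other 11 tested PCDHB genes were called with neither hairpin. They ranged in shNT from PCDHB16 at 7.65 ± 0.335 RPKM to PCDHB7 at 0.27 ± 0.00287 RPKM. Of these 11, PCDHB4, PCDHB15, PCDHB7 and PCDHB5 had the fewest reads, with log2 SEs of 0.18, 0.20, 0.26 and 0.27 (shTRPS1#1). PCDHB8, with 51 reads in all, was not tested.

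PCDHB genes resemble each other in sequence, which bears on how their reads could be assigned. Between 2.37% and 49.3% of the 50-base words of a PCDHB transcript also occurred in another gene (median 19.9%), while for the other tested members the median was 0.0496%. PCDHB8 shared most, with PCDHB13, and PCDHB1 least. PCDHB10 shared 35.4% of its words, mostly with PCDHB9. How reads that match several genes were counted is not given in the sources used here, so the levels of PCDHB10, PCDHB2 and PCDHB8 are less certain than that of PCDHB1. PCDHB1 overlaps an antisense transcript over 137 bases, which had 56 reads in all 9 libraries.

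**Figure D4:**
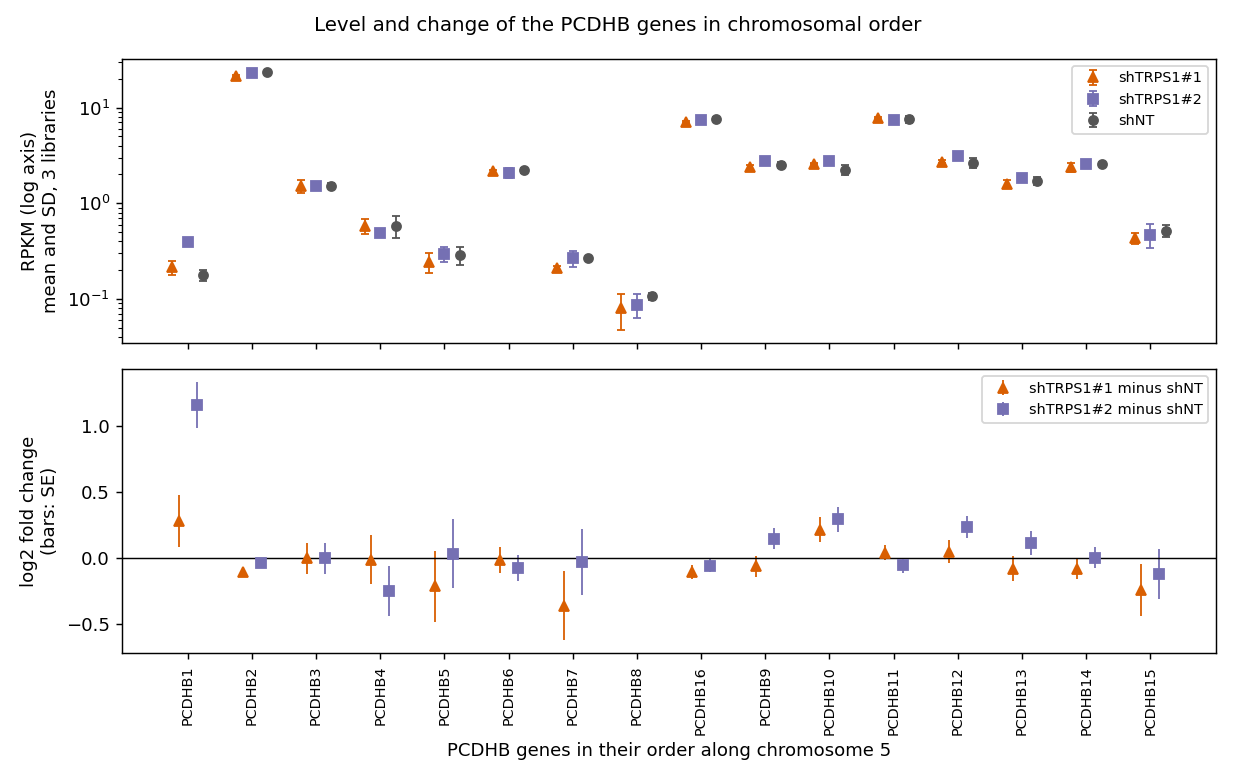
The 16 PCDHB genes in their order along chromosome 5: mean RPKM with SD by group above, and log2 fold change with 1 SE for the 15 tested genes below, with shTRPS1#1, shTRPS1#2 and shNT in the legend order. PCDHB2 is highest in every group, and PCDHB1, at the left end, has the one large change, 1.16 with shTRPS1#2.

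The hairpins were then compared directly, a test that does not use the shNT libraries' level. Between shTRPS1#2 and shTRPS1#1, 12 of 32 members differed, 6 higher and 6 lower with shTRPS1#2 (37.5%), where 19.6% of all genes did (8.9% higher and 10.7% lower). Higher with shTRPS1#2 were PCDHB1 (0.88 ± 0.17), CDH17 (0.86 ± 0.17), PCDH15 (0.38 ± 0.04), PCDH17 (0.32 ± 0.06), PCDH12 (0.17 ± 0.06) and CDH2 (0.15 ± 0.03). Lower with shTRPS1#2 were CDH4 (−0.79 ± 0.06), PCDH18 (−0.22 ± 0.03), PCDH10 (−0.21 ± 0.07), CDH11 (−0.14 ± 0.04), CDH13 (−0.14 ± 0.04) and PCDH7 (−0.14 ± 0.03; all log2 with SE). The smallest edgeR adjusted p after that of CDH4 was that of PCDH15, 4.24e-10, and the largest was that of PCDH12, 0.0282. For CDH7, PCDH19 and CDH15 the hairpins did not differ past the threshold: CDH7 by −0.03 with a 95% interval of −0.15 to 0.10, PCDH19 by −0.01 with −0.18 to 0.17, and CDH15 by −0.08 ± 0.04 (edgeR adjusted p = 0.169). The CPM of the shTRPS1#2 and shTRPS1#1 libraries did not overlap for 13 of 32 members, and for 32.4% of all genes.

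The cytoplasmic partners of cadherins were read from a separate list of 17 catenins and junction linkers, 12 of them tested. With shTRPS1#1, 2 were higher and 2 lower (7.1% and 6.33% of all genes), and with shTRPS1#2, 5 were higher and 1 lower (9.01% and 9.87%; median log2 fold change 0.06 and 0.08). VCL (vinculin, which ties strained junctions to actin) rose with both hairpins, to 58.7 ± 0.965 RPKM with shTRPS1#1 and 59.4 ± 1.08 RPKM with shTRPS1#2, against 54.2 ± 0.633 RPKM with shNT (log2 0.13 ± 0.03 each, edgeR adjusted p = 0.00213 and 0.00153). The others, named after their values were seen, were ACTN1 higher and ACTN4 and JUP lower with shTRPS1#1, and ARVCF, PKP2, PKP4 and AFDN higher and CTNNAL1 lower with shTRPS1#2. The beta-catenin gene CTNNB1 was called with neither. Of 7 desmosomal cadherins DSG2 alone was tested, and it was lower with shTRPS1#2 (−0.41 ± 0.09, edgeR adjusted p = 0.000399).

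Among 13 genes of signalling next to myoblast cadherins, all tested, 2 were higher and 4 lower with shTRPS1#1 (7.1% and 6.33% of all genes) and 1 higher and 4 lower with shTRPS1#2 (9.01% and 9.87%). CDON and BOC, the coreceptors that bind N-cadherin in myoblasts, were both lower with both hairpins. BOC averaged 15.7 ± 0.408 RPKM with shTRPS1#1 and 18.1 ± 0.233 RPKM with shTRPS1#2, against 21.1 ± 0.566 RPKM with shNT (log2 −0.42 ± 0.03 and −0.23 ± 0.03, edgeR adjusted p = 4.31e-14 and 6.28e-07). CDON changed by −0.17 ± 0.04 and −0.23 ± 0.04 (edgeR adjusted p = 0.000381 and 2.29e-06). GAS1, another hedgehog coreceptor, was lower by −0.12 ± 0.03 and −0.25 ± 0.03 (edgeR adjusted p = 0.00486, 0.0563 without shTRPS1#1 replicate 1, and 7.94e-09). MAPK14, the p38 alpha kinase downstream of CDON, was higher by 0.16 ± 0.04 and 0.17 ± 0.04 (edgeR adjusted p = 0.00188 and 0.000619). NTN4 was also higher and NEO1 lower with shTRPS1#1, and RHOA lower with shTRPS1#2; these 3 were named after their values were seen.

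Of the wider cadherin superfamily, 10 of 12 FAT, Dachsous, CELSR and calsyntenin genes were tested, with 1 higher and 4 lower with shTRPS1#1 and 2 higher and 1 lower with shTRPS1#2, against the same shares of all genes. FAT1, a giant cadherin, rose with both hairpins (0.26 ± 0.04 and 0.20 ± 0.04, edgeR adjusted p = 6.19e-07 and 6.51e-05). CLSTN1 was lower with both (−0.10 ± 0.03 and −0.15 ± 0.03, edgeR adjusted p = 0.0413 and 0.0008), the first of these lost without shTRPS1#1 replicate 2 or 3 (0.0659 and 0.232), shTRPS1#2 replicate 2 (0.0513), or shNT replicate 1 or 3 (0.121 and 0.103). FAT3, CLSTN2 and CLSTN3 were lower with shTRPS1#1 and FAT4 higher with shTRPS1#2, again named after their values were seen. Of the neighbours of the PCDHB genes on chromosome 5, 24 of 37 PCDHA and PCDHG genes were tested. With shTRPS1#1 edgeR called 0 of them (13.4% of all genes). With shTRPS1#2 it called 1 (18.9% of all genes), PCDHGC3 (−0.11 ± 0.04, adjusted p = 0.0494). The PCDHGC3 call was lost under every other scaling (edgeR adjusted p = 0.064, 0.0715 and 0.055), in DESeq2 (0.113) and in limma (0.16 and 0.165). Genes of the PCDHA and PCDHG clusters share constant exons, so their reads cannot be split cleanly. Of 5 CDHR genes 2 were tested and neither was called.

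Of 10 genes of proteases and secretase subunits that act on cadherins, all tested, PSEN2 was higher with both hairpins (0.20 ± 0.04 and 0.28 ± 0.04, edgeR adjusted p = 0.000827 and 3.34e-06) and MMP14 lower with both (−0.19 ± 0.03 and −0.15 ± 0.03, edgeR adjusted p = 2.55e-05 and 0.000933). The other 8, among them ADAM10, the main sheddase of N-cadherin, were called with neither. Of all genes tested, 3.46% were higher and 2.37% lower with both hairpins. Of 12 tested nectins and other junction molecules, 3 were higher with shTRPS1#1 (7.1% of all genes) and 3 higher and 1 lower with shTRPS1#2 (9.01% and 9.87%). NECTIN2 and NECTIN3 were higher with shTRPS1#2 and CADM1 with shTRPS1#1, named after their values were seen. NCAM1, a muscle and neural adhesion molecule, rose with both (0.18 ± 0.03 and 0.20 ± 0.03, edgeR adjusted p = 1.75e-05 and 3.34e-06). NECTIN1, like CDH4, moved in opposite directions with the hairpins: it averaged 16.8 ± 0.957 RPKM with shTRPS1#1 and 10.6 ± 0.487 RPKM with shTRPS1#2, against 12.1 ± 0.333 RPKM with shNT (log2 0.48 ± 0.04 and −0.20 ± 0.04, edgeR adjusted p = 1.18e-13 and 0.000369). Of 13 genes known to regulate clustered protocadherins, all tested, 1 was higher with shTRPS1#1 (7.1% of all genes) and 3 lower with shTRPS1#2 (9.87%). These were RAD21 with shTRPS1#1 and DNMT1, SMC1A and SMC3 with shTRPS1#2, named after their values were seen. CTCF was called with neither. Leaving out a single library ended the edgeR calls of ACTN1 (adjusted p up to 0.219), JUP (0.0697), AFDN (0.126), CLSTN3 (0.136), NEO1 (0.0584), RHOA (0.244), RAD21 (0.137), SMC1A (0.123), SMC3 (0.128) and PCDHGC3 (0.298).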

How the data were processed

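Poly(A) RNA-seq libraries of RD cells were analysed from the counts per Ensembl gene that the authors deposited. Per the submitters' processing notes the tools were featureCounts 1.6.5, STAR 2.7.2b and bcl2fastq 2.20.0.422 with build GRCh38 (roles and settings not stated). The deposited RPKM values were, gene by gene, proportional to counts divided by the library total, and were used for levels. The gene lengths they imply equalled the GENCODE 29 exonic length for 19 of the 47 members with a length. Symbols came from a reference list of gene names (60357 of 60676 identifiers had a symbol, and the rest held 0.107% of counts). Coordinates came from GENCODE 29. Counts were tested with edgeR 4.0.16 in R 4.3.3 (quasi-likelihood, TMM scaling, filterByExpr with a minimum count of 10, all 9 libraries, Benjamini-Hochberg adjustment over 17014 genes, threshold 0.05). SE is the log2 fold change over the square root of F. CPM uses TMM-scaled totals. Alternatives were other scalings, no filter, DESeq2 1.42.0, limma 3.58.1 on log2(RPKM + 0.1 or 1), 2-group fits, a replicate block and leaving out each library. Libraries of 1 group differed by more than sampling noise (chi-square per degree of freedom 1.26 to 2.65). The fit was also run on counts simulated with its own estimate of the spread, in which only well-counted genes were changed. That run does not cover members with few reads, such as CDH17 and PCDHB1, or the real spread between libraries. Values per library are given for CDH2, CDH15, the 5 highest members, members called with both hairpins and the 4 largest changes per contrast; of other lists, genes called with both hairpins. Members and lists were chosen with earlier results of these data known.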

Additional observations from a re-analysis of the deposited data

Results flagged for a closer look

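For 12 members the effect of shTRPS1#2 differed from that of shTRPS1#1 by a direct test of the difference (edgeR, adjusted over 17014 genes, n = 3 libraries each). The log2 differences, shTRPS1#2 minus shTRPS1#1, were 0.8811 for PCDHB1, 0.8566 for CDH17, 0.3764 for PCDH15, 0.3247 for PCDH17, 0.1747 for PCDH12 and 0.1456 for CDH2. On the other side they were −0.7923 for CDH4, −0.2196 for PCDH18, −0.2142 for PCDH10, −0.1418 for CDH11, −0.1415 for CDH13 and −0.1352 for PCDH7. TRPS1 itself was at 78.6% of shNT with shTRPS1#1 and 78.0% with shTRPS1#2. The PCDH12 difference was lost without shTRPS1#2 replicate 2 (edgeR adjusted p = 0.271), shTRPS1#1 replicate 1 (0.0794) or shTRPS1#1 replicate 2 (0.0832), and in DESeq2 (0.1) and limma (0.0686 and 0.0747 with pseudocounts of 0.1 and 1). The PCDH10 difference was lost without shTRPS1#1 replicate 1 (0.166), shTRPS1#1 replicate 3 (0.137), shTRPS1#2 replicate 1 (0.0959) or shTRPS1#2 replicate 2 (0.0689), and in DESeq2 (0.116) and limma (0.268 and 0.252). The other 10 differences passed under all 18 alternatives.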

How the results depend on the processing

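Over the 3 contrasts, 33 calls of single members were made; 22 stood under all 18 alternatives, 0 changed sign, and 6 differences not called became calls under some alternative. The count of members higher with shTRPS1#2 (5) was 3 in DESeq2 and in limma with either pseudocount, and the count called the same way with both hairpins (4) was 1 in DESeq2, where CDH7 remained. Leaving out each library in turn gave 5 to 7 higher (6) and 4 to 7 lower (6) with shTRPS1#1, 3 to 6 higher (5) and 2 to 4 lower (4) with shTRPS1#2, 5 to 6 higher (6) and 5 to 6 lower (6) for shTRPS1#2 against shTRPS1#1, 1 to 4 the same way with both (4), and 1 opposite throughout. Deviations of same-numbered libraries correlated at −0.0161 to 0.0476, and those of differently numbered libraries at −0.0558 to 0.0423. All were below the limit of 0.1 used for pairing, so the numbers were not taken as pairs. With the replicate block, calls among all genes rose from 2285 to 2505 with shTRPS1#1 and from 3213 to 3434 with shTRPS1#2. Between the hairpins they rose from 3330 to 3583. Among members, shTRPS1#1 then had 6 higher and 7 lower and shTRPS1#2 had 5 and 5, with PCDHB2 and PCDH7 gained. The hairpins compared directly had 6 and 6. Other scalings kept the share of higher calls among all genes within 10 percentage points. Depth limits CDH17, PCDHB1, PCDHB4, PCDHB5, PCDHB7, PCDHB15 and CDH26, with under 100 reads in every library, and the 18 untested members. Of these 7 tested genes, those other than CDH17 and PCDHB1 were called with neither hairpin, so smaller changes in them could have been missed.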
